A study of Mus musculus with 36 samples.

Results

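Lung monocytes of the 32-weeks time point were compared with lung monocytes of the 4-weeks time point across the genome. The comparison holds 12 of the 36 libraries of the series, namely 6 libraries of 32-weeks monocytes labelled as population 2, read here as CD45.2, and 6 libraries of 4-weeks monocytes, each set with 3 libraries of filtered air (FA) and 3 of concentrated fine particulate matter (PM2.5). Every gene whose mean reached 1 FPKM (fragments per kilobase of transcript, scaled to the mapped fragments of the library) over these 12 libraries was taken, which gave 12821 of the 27562 genes in the table. The other 14741 genes had a lower mean and were not tested.

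All 12 libraries came from lung shielded chimeric mice. Male C57BL/6J mice, whose leukocytes carry the CD45.2 form of the leukocyte common antigen, were irradiated with the chest under lead, were given busulfan, and then received bone marrow of congenic CD45.1 mice of the B6.SJL-Ptprc a Pepc b/BoyJ strain, so that the monocytes of the control FA mice came from irradiated and transplanted animals too. The mice breathed FA or PM2.5 for 4-weeks or 32-weeks, and Ly6G-, MHC II-, CD64 low and CD11b high monocytes were sorted from the lung. The groups are named here 4-weeks FA, 4-weeks PM2.5, 32-weeks CD45.2 FA and 32-weeks CD45.2 PM2.5, with 3 mice each, and values of a group are given in the order of its replicate numbers 0, 1 and 2. The 32-weeks mice were older and longer past the transplant than the 4-weeks mice, so time, age, time after irradiation and sorting date cannot be told apart.

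Lung monocytes are of mixed kind. Classical monocytes, which carry Ly6C and the chemokine receptor CCR2, leave the bone marrow and enter tissue, where they can become macrophages, while non-classical monocytes patrol the vessel wall and depend on the nuclear receptor Nr4a1. Interstitial macrophages lie in the lung wall around airways and vessels and are known for scavenger receptors, complement C1q and, in one subset, the hyaluronan receptor Lyve1. When myeloid cells meet microbial or damage signals, NF-kappa B enters the nucleus and switches on cytokines together with its own inhibitors, which then shut the response down.

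The labels do not give the CD45 type of the 4-weeks monocytes, and the study describes CD45.2 cells as the ones sequenced at that time point, so genes linked to the Ptprc locus, which encodes CD45 (chr1:138063407-138175306, mm10), were used to check it. Of 192 genes tested within 20 Mb of Ptprc, 6 differed between CD45.1 and CD45.2 monocytes of 32-weeks with no overlap of the 6 and 6 libraries, beside 71 of the 12856 genes tested in all. Ctse (chr1:131638306-131675505), which encodes the protease cathepsin E, was 54.4, 52.7 and 47.5 FPKM in 4-weeks FA, 3.91, 6.51 and 60.6 FPKM in 4-weeks PM2.5, 39.4 to 61.5 FPKM in the 32-weeks CD45.1 libraries and 1.46 to 3.53 FPKM in the 32-weeks CD45.2 libraries. Chil1 (chr1:134182176-134190181), which encodes a chitinase-like protein, was 37.9, 71.6 and 51.9 FPKM in 4-weeks FA and 2.23, 13.9 and 44.9 FPKM in 4-weeks PM2.5, against 25.1 to 63.2 FPKM in CD45.1 and 0 to 0.414 FPKM in CD45.2 libraries. All 3 FA libraries and PM2.5 replicate 2 thus lay at or near the CD45.1 level of both genes. PM2.5 replicates 0 and 1 lay between the levels, nearer to CD45.2 for Ctse, while for Chil1 replicate 0 was nearer to CD45.2 and replicate 1, at 13.9 FPKM, to CD45.1.

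Ppfia4 (chr1:134296783-134332928), which encodes a liprin scaffold protein, runs the other way, with 0.042 to 0.264 FPKM in CD45.1 and 6.02 to 11 FPKM in CD45.2 libraries of 32-weeks. It was 1.81, 1.59 and 0.889 FPKM in 4-weeks FA and 8.67, 6.8 and 0.711 FPKM in 4-weeks PM2.5, so the same 4 libraries stood nearer to CD45.1 and PM2.5 replicates 0 and 1 within the CD45.2 range. The other 3 genes did not divide the libraries this way. Atp2b4 was on the CD45.2 side in 5 of the 6 4-weeks libraries, Gm38399 in 1 and Cd55 in 0. In Ctse, Chil1 and Ppfia4 the 4-weeks FA libraries and 4-weeks PM2.5 replicate 2 therefore go against CD45.2, and PM2.5 replicates 0 and 1 are mixed. The 4-weeks libraries are called 4-weeks monocytes below. The 4 libraries are called near the CD45.1 level after these 3 genes only. Many results are given also without them, in a reduced comparison that keeps PM2.5 replicates 0 and 1 alone for 4-weeks. With exposure as a covariate and no FA library at 4-weeks, its log2 fold changes compare 32-weeks CD45.2 PM2.5 with these 2 libraries. The FA libraries of 32-weeks enter it only through the shared spread. In the reduced comparison no gene list described below had a member past the adjusted threshold. The number of members at an unadjusted p under 0.05 is given with most lists, to be read beside 1344 of 12844 genes in all.

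**Figure D1:**
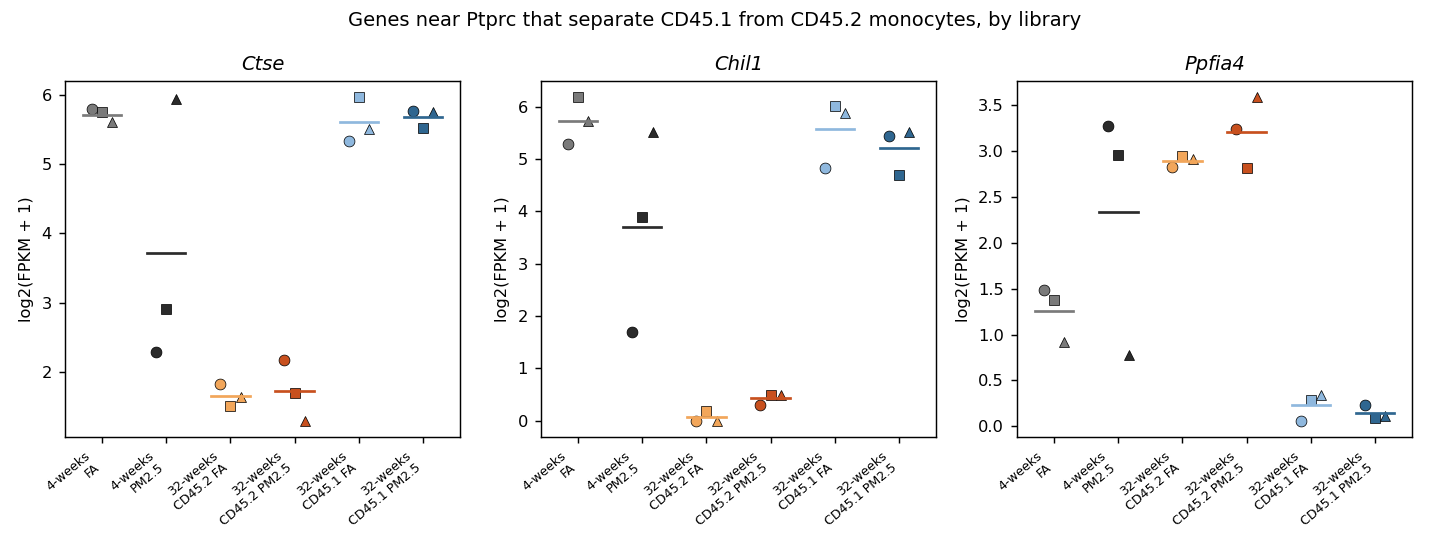
Levels of Ctse, Chil1 and Ppfia4, as log2(FPKM + 1) on the vertical axis, in the 18 monocyte libraries by group; circles, squares and triangles are replicates 0, 1 and 2, and lines are group means of the log2 values. In 4-weeks PM2.5, replicates 0 and 1 lie just above the 32-weeks CD45.2 libraries in Ctse, at 3.91 and 6.51 FPKM, and among them in Ppfia4, while replicate 2 lies with the 4-weeks FA and 32-weeks CD45.1 libraries.

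The deposited FPKM of the 12 libraries summed to between 2320650 and 3339020, with 11730 to 12759 genes at 1 FPKM or more. The 10 highest genes held 24.7% to 33.3% of the sum. No read counts were used here and FPKM do not give the depth of each library, so no counting error can be given, and the p-values measure the spread between the mice. The first principal component of the tested genes (18.8% of the variance) placed the 4-weeks libraries between -70.3 and -21.2 and the 32-weeks libraries between 12.1 and 81.2. On the second (11.4%), replicate 2 of 4-weeks FA and of 4-weeks PM2.5 stood apart from the other 4-weeks libraries, at -40.2 and -65.0 against 18.9 to 43.4, and 32-weeks CD45.2 PM2.5 replicate 1 was at -52.2. Markers of several cell types moved with the time points. The summed FPKM of the 14 interstitial macrophage markers was 1400 to 2286 at 4-weeks and 3520 to 9730 at 32-weeks, and that of the 17 non-classical monocyte markers was 4502 to 8413 and 2578 to 4708. The 16 natural killer cell markers summed to 24.8 to 304 FPKM at 4-weeks and 9.1 to 22.9 FPKM at 32-weeks, and the 16 neutrophil markers to 141 to 1396 and 71.8 to 103 FPKM, with the highest sums of both lists in the replicates 2 of 4-weeks. The T cell markers summed to 3.5 to 10.3 FPKM at 4-weeks and 15.1 to 45.0 FPKM at 32-weeks. The sums of endothelial and of dendritic cell markers overlapped between time points. In the comparison below, 3 of 8 tested endothelial markers were called higher and 1 lower. Of 11 tested dendritic cell markers 2 were called higher and 0 lower, beside 6.68% of all genes in each direction. In sorted bulk cells, fewer cells of a type and less RNA per cell cannot be told apart, and the part of these shifts in the results was not tested.

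**Figure D2:**
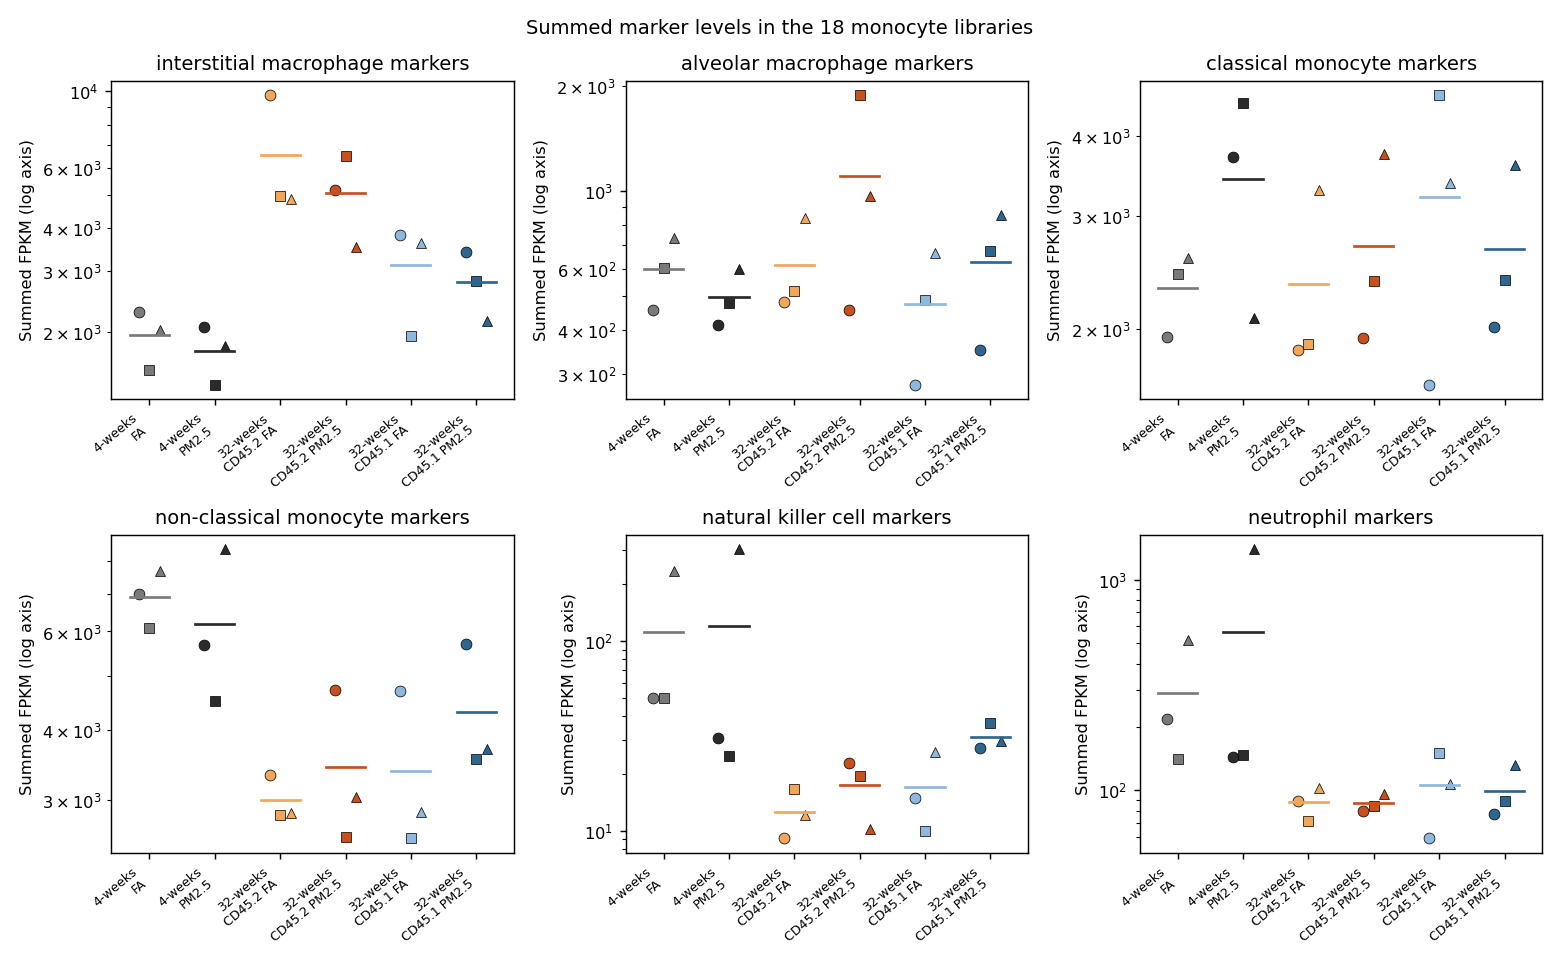
Summed FPKM of 6 marker lists (vertical log axes) in the 18 monocyte libraries by group; circles, squares and triangles are replicates 0, 1 and 2, and lines are group means. Interstitial macrophage markers lie at 1400 to 2286 FPKM at 4-weeks, 3520 to 9730 FPKM in 32-weeks CD45.2 monocytes and 1942 to 3828 FPKM in 32-weeks CD45.1 monocytes.

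With exposure as a covariate, 1713 genes changed between the time points at an adjusted p under 0.05 (limma). Of the 12821 genes, 856 were higher at 32-weeks (6.68%) and 857 were lower (6.68%). The counts of list members below are to be read beside these shares. A log2 fold change of at least 1 in size was seen for 473 of the higher and 382 of the lower genes. The 6 and 6 libraries did not overlap for 1019 genes (7.95%), of which 973 were also past the threshold. The median log2 fold change over all genes was -0.05. When every library was rescaled to the same FPKM sum, this median was 0.06 and the split became 972 higher and 417 lower genes.

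Without the 4 libraries near the CD45.1 level, 4 genes were higher and 12 were lower at an adjusted p under 0.05, and 1344 had an unadjusted p under 0.05 (limma), among the 12844 genes that reached the minimum of 1 FPKM in the remaining 8 libraries. On the 12821 genes of the full comparison the same libraries gave 3 higher and 10 lower, with 1420 at an unadjusted p under 0.05. There all 856 higher genes stayed positive and 856 of the 857 lower genes stayed negative. The median log2 fold change of the higher genes went from 1.08 to 0.974, and that of the lower genes from -0.931 to -0.615. These genes were called with the kept libraries included, so the signs are not an independent check. Fewer libraries also let fewer genes pass, and the part of this was not tested. The genes with the smallest adjusted p in that reduced comparison were short or predicted transcripts, among them Mir3096, AC157602.1, Gm23151, n-R5s197 and Rn7s1. Of the genes with a known product, the lectin Cd209f and the Siglec receptor Siglech were higher at 32-weeks on both gene sets. Gadd45a and the protein Z gene Proz were lower on both. Siglech is on the list of dendritic cell markers. Ctla2b and Acod1 passed only on the set of 12844 genes (adjusted p = 0.034 for both) and not on the set of 12821 (adjusted p = 0.0585 and 0.0543). Siglech was 1.71, 0.295 and 0 FPKM in 4-weeks FA, 0.0769, 0.49 and 0 FPKM in 4-weeks PM2.5, and 4.65 to 9.85 FPKM in the 6 libraries of 32-weeks, so that no library overlapped. Proz ran from 1.98 to 19.5 FPKM at 4-weeks, highest in PM2.5 replicate 1, and from 0 to 0.792 FPKM at 32-weeks.

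Within FA, 549 genes changed with time (4.28%), 243 higher and 306 lower, and 2527 had an unadjusted p under 0.05. Within PM2.5, 96 genes changed (0.749%), 56 higher and 40 lower, and 1967 had an unadjusted p under 0.05. These counts moved widely with 1 library left out, and no single library carried them. Leaving out 4-weeks PM2.5 replicate 2 raised the FA count to 700. The FA count fell to 7 without 4-weeks FA replicate 1, to 12 without its replicate 2, to 210 without its replicate 0 and to 13 without 32-weeks CD45.2 FA replicate 0. The PM2.5 count was 25, 10 and 13 without replicate 0, 1 or 2 of 4-weeks PM2.5, 19 and 20 without replicate 1 or 2 of 32-weeks CD45.2 PM2.5, and 54, 25 and 40 without 4-weeks FA replicate 0, 4-weeks FA replicate 1 or 32-weeks CD45.2 FA replicate 1, which enter through the shared spread.

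The difference of the time effect between exposures passed the threshold for 2 genes (0.0156%), both short transcripts of no known function, and 457 genes had an unadjusted p under 0.05 for it. The next smallest adjusted p was 0.0665. In Ctse and Ppfia4, all 4-weeks libraries of the FA comparison and 1 of 3 of the PM2.5 comparison lay nearer to CD45.1 than to CD45.2. In Ppfia4 their values were intermediate, and other genes near Ptprc did not divide the libraries this way. Exposure and this difference of the 4-weeks libraries cannot be told apart.

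**Figure D3:**
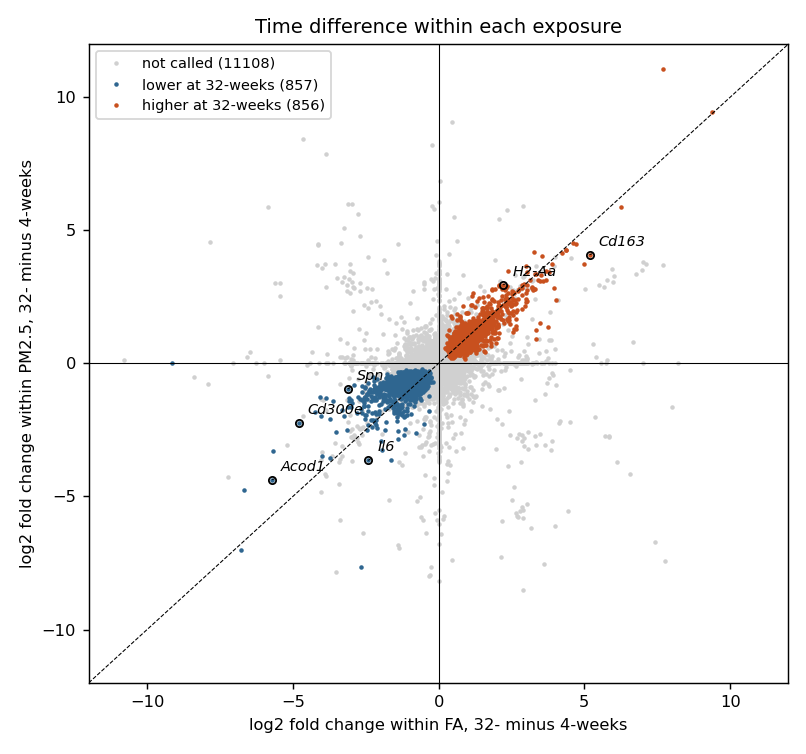
Log2 fold change of each of the 12821 genes between 32-weeks CD45.2 and 4-weeks monocytes within FA (horizontal) and within PM2.5 (vertical), with higher genes in orange, lower genes in blue and the identity as a dashed line. The 856 higher and 857 lower genes were called on the average of both axes, and the values over all genes run from -10.8 to 11.1.

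Genes of interstitial macrophages were higher at 32-weeks. Of the 14 markers, all tested, 12 rose, none fell, and the median log2 fold change was 3.35, against -0.05 over all genes. The haemoglobin scavenger receptor Cd163 (chr6:124304656-124330527) was 3.48, 0.872 and 0.0784 FPKM in 4-weeks FA and 3.48, 2.57 and 0.0941 FPKM in 4-weeks PM2.5. It was 130.3, 55.0 and 57.8 FPKM in 32-weeks CD45.2 FA and 29.3, 87.8 and 30.8 FPKM in 32-weeks CD45.2 PM2.5. Every 32-weeks library was thus well above every 4-weeks library, and the 2 lowest values were those of the replicates 2 of 4-weeks. Cd163 was 37-fold higher in mean FPKM, with a log2 fold change of 4.63 ± 0.49 (SE, adjusted p = 0.000621). For 32-weeks CD45.2 PM2.5 against 4-weeks PM2.5 replicates 0 and 1 alone, the log2 fold change was 3.46.

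The folate receptor Folr2 was 0.16 to 1 FPKM in 4-weeks FA, 0 to 2.49 FPKM in 4-weeks PM2.5 and 10.7 to 26.3 FPKM at 32-weeks, a 20.4-fold difference (log2 fold change 3.35 ± 0.32, adjusted p = 0.000472). Lyve1 was at most 3.13 FPKM at 4-weeks and 7.88 to 32.7 FPKM at 32-weeks (log2 fold change 3.20 ± 0.41, adjusted p = 0.00134). The CXC chemokine Pf4 rose from a median of 8.43 to 108 FPKM (log2 fold change 4.32 ± 0.59, adjusted p = 0.0017). Groups did not overlap for any of these 3 genes. Among the members that did not pass was the macrophage adhesion receptor Adgre1, which encodes F4/80 (log2 fold change 0.36, adjusted p = 0.17). Pf4 is also on the list of platelet markers, of which 5 were tested, 1 rose and 1 fell. The platelet markers summed to 312 to 806 FPKM at 4-weeks and 274.5 to 2861 FPKM at 32-weeks. The part of platelets in Pf4 was not tested.

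The uptake receptors Mertk, for apoptotic cells, Mrc1, for mannose-bearing ligands, and Stab1, a scavenger receptor, had log2 fold changes of 3.40, 3.35 and 3.81. The endocytic adaptor Dab2, the anion transporter Slco2b1 and the Fc receptor-like Fcrls rose by 3.61, 3.58 and 3.42 on the log2 scale. Vcam1, a ligand of leukocyte integrins, ran from 0.328 to 4.73 FPKM at 4-weeks and from 15.5 to 137 FPKM at 32-weeks, a 34.4-fold difference of means. The matricellular gene Cyr61 was at most 0.772 FPKM at 4-weeks and 3.38 to 31.4 FPKM at 32-weeks. Cd4, which in mice some macrophages also carry, was 0.29 to 1.69 FPKM and 11.4 to 37.6 FPKM, while the T cell genes Cd3d, Cd3g, Cd8a, Cd8b1 and Cd5 were under 1 FPKM in all 12 libraries. Only Cd4 and Il7r, the interleukin-7 receptor, of the 15 T cell markers were tested, and Il7r also rose (log2 fold change 1.35, adjusted p = 0.00641). The part of T cells in these values was not tested. The transcription factor Maf rose from a median of 13.8 to 50.2 FPKM (log2 fold change 1.57 ± 0.27, adjusted p = 0.0049).

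Several of these genes also differed between the CD45.2 and CD45.1 monocytes of 32-weeks. In those 6 CD45.1 libraries, Cd163 had a lowest, median and highest value of 2.6, 4.02 and 5.45 FPKM and Folr2 of 0, 0.904 and 1.66 FPKM. CD45.2 exceeded CD45.1 monocytes by 3.57 on the log2 scale for Cd163 (adjusted p = 0.00087), by 3.32 for Folr2 (adjusted p = 0.000509), by 2.75 for Lyve1 (adjusted p = 0.008) and by 3.55 for Cd4 (adjusted p = 0.00078). Over all genes tested, 65 were higher and 10 lower in CD45.2 than in CD45.1 monocytes of 32-weeks. Against the same 4-weeks libraries, which both comparisons share, the CD45.1 monocytes of 32-weeks had 137 genes higher and 338 lower, and their log2 fold change was 1.06 for Cd163 (adjusted p = 0.196) and 0.03 for Folr2 (adjusted p = 0.988).

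**Figure D4:**
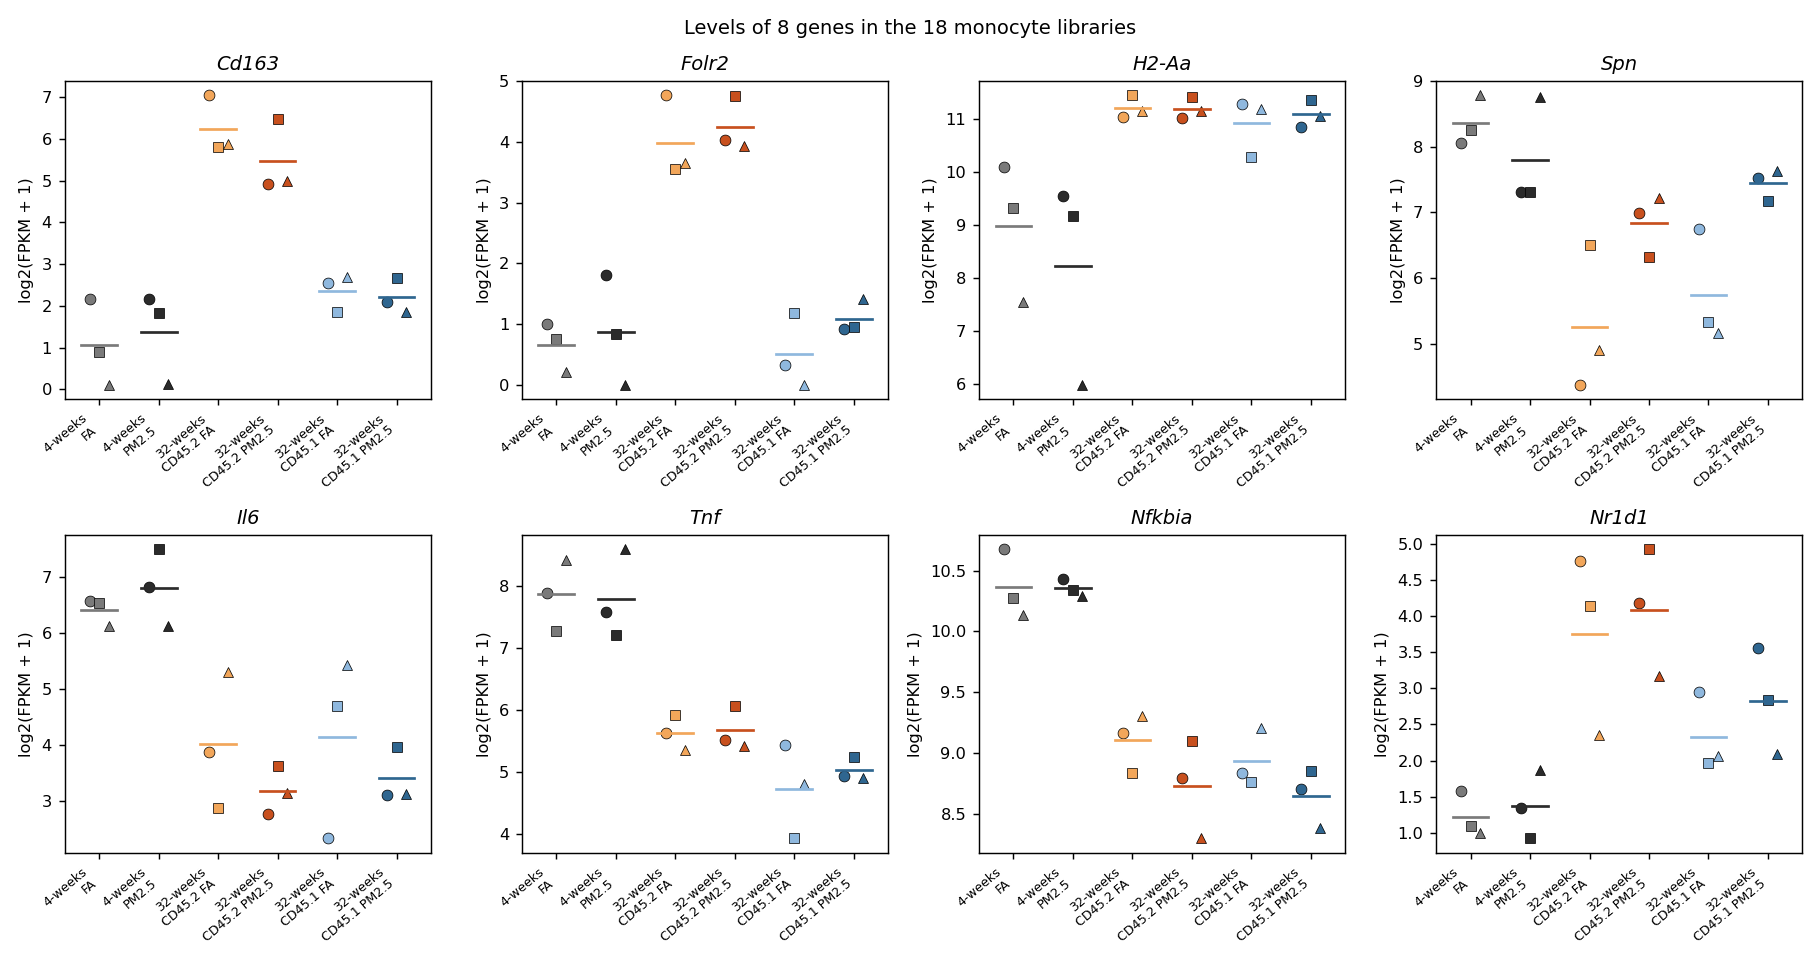
Levels of 8 genes as log2(FPKM + 1) (vertical axes) in the 18 monocyte libraries by group; circles, squares and triangles are replicates 0, 1 and 2, and lines are group means of the log2 values. Cd163 and Folr2 are high in the 6 libraries of 32-weeks CD45.2 monocytes only, while Il6, Tnf and Nfkbia are high in the 6 libraries of 4-weeks.

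Against PM2.5 replicates 0 and 1 alone all 14 interstitial markers stayed positive with a median of 2.47, and 12 had an unadjusted p under 0.05, but none passed the adjusted threshold. The list had 9 genes past it without 32-weeks CD45.2 FA replicate 0 and PM2.5 replicate 1, which had the highest marker sums, and 12 without the replicates 2 of 4-weeks. Alveolar macrophage markers were mostly higher too. Of 16 markers 14 were tested, 9 rose and 1 fell, with a median log2 fold change of 1.82. Their summed FPKM overlapped between time points, with 414 to 736 at 4-weeks and 457 to 1881 at 32-weeks. The ribonuclease Ear1 rose 52.6-fold, from 0 to 2.02 FPKM at 4-weeks to 14.3 to 80.1 FPKM at 32-weeks, and the proton pump subunit Atp6v0d2 rose 47-fold (log2 fold change 3.79 ± 0.38, adjusted p = 0.000553). Plet1 and the keratin Krt19 rose by 2.95 and 2.36 on the log2 scale. Siglecf, the surface lectin by which alveolar macrophages are sorted, was positive without passing (log2 fold change 1.14, adjusted p = 0.067), and the lipid regulator Pparg fell (log2 fold change -1.8, adjusted p = 0.0175). PM2.5 replicate 1 of 32-weeks was the highest library in Ear1, Atp6v0d2 and Plet1, at 80.1, 84.2 and 53.9 FPKM. Without that library and FA replicate 0, 6 of 11 tested alveolar markers rose. Against PM2.5 replicates 0 and 1 alone, 11 of the 14 were higher at an unadjusted p under 0.05 and none was lower.

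Complement genes were higher at 32-weeks. Of 22 listed genes 16 were tested, 8 rose and 1 fell, with a median log2 fold change of 0.86. C1qa (chr4:136895917-136898803), a chain of the first component, was 167, 60.4 and 0.78 FPKM in 4-weeks FA and 112, 55.4 and 1 FPKM in 4-weeks PM2.5. Its FA libraries of 32-weeks held 1206, 670 and 334 FPKM, and its PM2.5 libraries 488, 1031 and 314 FPKM. The groups did not overlap, and the replicates 2 of 4-weeks lay more than an order of magnitude under the other 4-weeks libraries. The difference was 10.2-fold (log2 fold change 4.58 ± 1.18, adjusted p = 0.0262), and C1qb and C1qc rose by 4.31 and 4.59 on the log2 scale. The call of C1qa was lost without 32-weeks CD45.2 FA replicate 0 (adjusted p = 0.0604), FA replicate 1 (adjusted p = 0.0516) or PM2.5 replicate 1 (adjusted p = 0.0606), and that of C1qb without the same libraries (adjusted p = 0.059, 0.0516 and 0.0597). The anaphylatoxin receptor C3ar1 rose by 3.27 and the C4 gene C4b by 2.04 on the log2 scale, while C3 fell by 0.65 (adjusted p = 0.0495) and lost its call without any 1 of 10 libraries. With PM2.5 replicates 0 and 1 alone 8 genes of the list had an unadjusted p under 0.05 in the higher direction and 1 in the lower, and none passed the adjusted threshold. The count of higher genes was 4 without the 2 libraries of 32-weeks with the highest interstitial marker sums.

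Transcripts of MHC class II genes were higher at 32-weeks although the sort took MHC II- cells. Of 11 listed genes 10 were tested, all 10 were positive, 5 rose and the median log2 fold change was 1.40. H2-Aa (chr17:34282744-34287827), the alpha chain of I-A, was 1092, 638 and 186 FPKM in 4-weeks FA, 745, 575 and 62.6 FPKM in 4-weeks PM2.5, 2086, 2764 and 2266 FPKM in 32-weeks CD45.2 FA and 2064, 2718 and 2258 FPKM in 32-weeks CD45.2 PM2.5. All 32-weeks libraries lay above all 4-weeks libraries and spanned a narrow range, whereas the replicates 2 of 4-weeks were the lowest of their groups. The fold was 4.29 (log2 fold change 2.58 ± 0.60, adjusted p = 0.0167). The invariant chain Cd74 rose by 1.79, the beta chain H2-Ab1 by 2.48, and the peptide-loading genes H2-DMa and H2-DMb1 by 1.27 and 1.54 on the log2 scale. H2-Ab1 lost its call without any 1 of 6 libraries, with an adjusted p of 0.0517 to 0.0677. H2-Eb1 did not overlap between time points but missed the threshold (log2 fold change 2.97, adjusted p = 0.0506).

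CD45.1 monocytes of 32-weeks held H2-Aa at a lowest, median and highest value of 1239, 2221 and 2620 FPKM, and CD45.2 exceeded CD45.1 by 0.20 on the log2 scale (adjusted p = 0.796). For H2-Aa, PM2.5 replicates 0 and 1 alone gave a log2 fold change of 1.83. The list had 0 genes past the threshold without the 4 libraries near the CD45.1 level, with 7 at an unadjusted p under 0.05, and 1 without the 2 libraries of 32-weeks with the highest interstitial marker sums. In the opposite direction, genes of MHC class I and its peptide loading were lower. Of 22 tested, 7 fell and none rose, with 0 at an unadjusted p under 0.05 in the higher direction. Over all genes 6.68% were called in each direction. H2-Q6 and H2-Q7, which share much of their sequence so that reads can be split between them, had log2 fold changes of -1.52 and -1.35, and the classical gene H2-K1 of -0.75. The class I count was 2 after rescaling to the same FPKM sum and 1 without the replicates 2 of 4-weeks. It was 2 without the 2 libraries of 32-weeks with the highest interstitial marker sums. Without the 4 libraries near the CD45.1 level it was 0, with 3 at an unadjusted p under 0.05, beside 1344 of 12844 genes in all.

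Chemokines divided. Of 22 listed genes 21 were tested, 8 rose and 4 fell, beside 6.68% of all genes in each direction. The median log2 fold change was 0.79. The B cell attractant Cxcl13 rose by 3.73 on the log2 scale, the monocyte attractants Ccl7, Ccl8 and Ccl12 by 2.82, 2.57 and 2.61, and Cxcl14 by 1.52. Those that fell were the interferon-inducible Cxcl10 (log2 fold change -2.23), the neutrophil attractant Cxcl2 (-1.38), Ccl4 (-1.5) and Ccl5 (-2.07). The calls of Cxcl2 and Ccl5 were each lost without any 1 of 8 libraries (adjusted p up to 0.0771 and 0.0824), and that of Ccl8 without 32-weeks CD45.2 FA replicate 1 or PM2.5 replicate 1 (adjusted p = 0.0516 and 0.0548). With PM2.5 replicates 0 and 1 alone 5 were higher and 4 lower at an unadjusted p under 0.05, with none past the adjusted threshold. The split was 5 higher and 3 lower without the 2 libraries of highest interstitial marker sum, and 5 and 2 without the replicates 2 of 4-weeks.

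Some lysosomal and matrix genes rose. Of 40 lysosomal genes, all tested, 12 rose and 1 fell, beside 6.68% of all genes in each direction. The median log2 fold change was 0.17. The peptidase Tpp1 was 21.5 to 27.9 FPKM at 4-weeks and 34.5 to 67.6 FPKM at 32-weeks, with no overlap (log2 fold change 0.82 ± 0.15, adjusted p = 0.00679). The tetraspanin Cd63 rose by 2.72 on the log2 scale. Of 16 liver X receptor targets and lipid efflux genes, all tested, 5 rose and 1 fell, beside the same shares. Their median log2 fold change was 0.09. The cholesterol exporter Abca1 was 9.81 to 21.1 FPKM at 4-weeks and 27.0 to 89.6 FPKM at 32-weeks, and rose by 1.84 on the log2 scale. Apoe, which encodes the lipid carrier apolipoprotein E, was among the most abundant transcripts, with 969 to 1871 FPKM at 4-weeks and 2297 to 5342 FPKM at 32-weeks (log2 fold change 1.13 ± 0.23, adjusted p = 0.0102). Of 21 tested matrix and remodelling genes 9 rose and 1 fell, beside the same shares of all genes. The protease inhibitor Timp2 ran from 9.75 to 20.8 FPKM at 4-weeks and from 53.4 to 125 FPKM at 32-weeks (log2 fold change 2.33 ± 0.27, adjusted p = 0.000833), and Timp3 and osteopontin, Spp1, rose by 1.93 and 1.33. Serpinb2 fell by 1.93 on the log2 scale. Lysosomal genes past the threshold in the higher direction numbered 6, and matrix genes 3, without the 2 libraries of highest interstitial marker sum. At an unadjusted p under 0.05, and with PM2.5 replicates 0 and 1 alone, 8 lysosomal genes were higher and 0 lower, 8 matrix genes were higher and 3 lower, and 6 lipid efflux genes were higher and 0 lower.

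Among receptors for microbes and antibodies, the flagellin receptor Tlr5 was 3.51 to 5.95 FPKM at 4-weeks and 9.29 to 41.1 FPKM at 32-weeks (log2 fold change 1.98 ± 0.30, adjusted p = 0.00283). Tlr3 and Tlr1 rose by 1.33 and 1.04 on the log2 scale. Nlrp3, the inflammasome sensor, and the peptidoglycan sensors Nod1 and Nod2 fell, with log2 fold changes of -1.43, -1.15 and -1.60. The inhibitory Fc receptor Fcgr2b rose from 74.0 to 131 FPKM at 4-weeks to 181 to 455 FPKM at 32-weeks (log2 fold change 1.60 ± 0.24, adjusted p = 0.00266). The lipid-sensing receptor Trem2 rose by 1.89 on the log2 scale, and the amplifying receptors Trem1 and Trem3 fell, with log2 fold changes of -2.16 and -1.68. Clec4e, which encodes the mycobacterial glycolipid receptor Mincle, was 281 to 742 FPKM at 4-weeks and 48.0 to 258 FPKM at 32-weeks, with no overlap (log2 fold change -2.45 ± 0.36, adjusted p = 0.00249). Beside 6.68% of all genes in each direction, 3 of 26 Toll-like and Nod-like receptors rose and 6 fell. Of 9 tested Fc receptors 4 rose and 1 fell. Of 22 tested C-type lectin and triggering receptors 3 rose and 6 fell. In that order, members at an unadjusted p under 0.05 with PM2.5 replicates 0 and 1 alone were 4 higher and 3 lower, 2 and 0, and 2 and 4. Those counts stand beside 1344 of 12844 genes in all.

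Of 19 clock genes 15 were tested, 5 rose and 1 fell, beside 6.68% of all genes in each direction. The clock repressor Nr1d1 (chr11:98741811-98775333) was 1.98, 1.13 and 1.01 FPKM in 4-weeks FA, 1.53, 0.896 and 2.67 FPKM in 4-weeks PM2.5, 26.1, 16.6 and 4.11 FPKM in 32-weeks CD45.2 FA and 17.1, 29.4 and 7.97 FPKM in 32-weeks CD45.2 PM2.5. The groups did not overlap, and the replicates 2 of 32-weeks were the lowest. The fold was 11 (log2 fold change 2.62 ± 0.41, adjusted p = 0.00297). The output factors Dbp and Tef rose by 2.34 and 1.15 on the log2 scale, Rora by 0.78 and Bhlhe41 by 1.71, and Bhlhe40 fell by 1.59. Bhlhe41 missed the threshold without 32-weeks CD45.2 FA replicate 0 (adjusted p = 0.0501). The core activators Arntl and Clock and the period genes Per1 and Per2 did not pass the threshold. The hour of sorting is not given in the sources used here. With PM2.5 replicates 0 and 1 alone 5 clock genes were higher at an unadjusted p under 0.05, none was lower and none passed the adjusted threshold, and 2 rose without the 2 libraries of highest interstitial marker sum.

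Genes of the NF-kappa B system were lower at 32-weeks. Of 21 subunits, inhibitors and feedback genes, all tested and all negative, 16 fell, with a median log2 fold change of -0.98. Nfkbia (chr12:55489411-55492647), which encodes the inhibitor I kappa B alpha and is itself an NF-kappa B target, was 1635, 1237 and 1126 FPKM in 4-weeks FA and 1376, 1297 and 1255 FPKM in 4-weeks PM2.5. It was 574, 456 and 631 FPKM in 32-weeks CD45.2 FA and 442, 547 and 313 FPKM in 32-weeks CD45.2 PM2.5. The 2 time points did not overlap, and the 4-weeks replicates lay close together. The 4-weeks mean was 2.67-fold higher (log2 fold change -1.44 ± 0.18, adjusted p = 0.00116), and PM2.5 replicates 0 and 1 alone gave -1.66.

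The atypical inhibitor Nfkbiz, the ubiquitin-editing enzyme Tnfaip3, which ends signalling, and the adaptor Traf1 fell, with log2 fold changes of -1.46, -1.39 and -2.21. The subunit Rel fell, with a log2 fold change of -1.51, which was -0.58 when PM2.5 replicates 0 and 1 alone stood for 4-weeks, where it was 163 and 180 FPKM against 348 to 586 FPKM in the other 4. The subunits Nfkb1, Nfkb2 and Rela fell, with log2 fold changes of -0.68, -0.59 and -0.72, and Relb missed the threshold (log2 fold change -0.56, adjusted p = 0.0696). The call was lost without any 1 of 4 libraries for Nfkb1 (adjusted p up to 0.0582) and any 1 of 9 for Nfkb2 (adjusted p up to 0.0816), and for Rela without 4-weeks FA replicate 2 or 32-weeks CD45.2 FA replicate 1 (adjusted p = 0.0535 and 0.0507). With PM2.5 replicates 0 and 1 alone 8 of the 21 genes had an unadjusted p under 0.05, all lower, none passed the adjusted threshold and the median was -0.53. The count was 11 after rescaling to the same FPKM sum, 10 without the 2 libraries of highest interstitial marker sum and 10 without the replicates 2 of 4-weeks.

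Promoters of the lowered genes were searched for the NF-kappa B motif GGG, any 3 bases, TTCC on both strands, in RefSeq windows (GRCm38.p6) of 250 bases before to 50 after a gene start. The motif was in 1825 of 32851 windows (5.56%). It was found for 597 of 7798 tested genes with a window (7.66%), for 51 of 550 lower genes (9.27%) and for 48 of 615 higher genes (7.8%). Among list members with a window it was found for 8 of 18 NF-kappa B genes, 3 of 13 cytokines and 5 of 15 chemokines. NF-kappa B switches on cytokines and its own inhibitors, so these shares can follow from the choice of the lists whatever the values here. A match is a description of the letters, not of a bound site. Sites of 5 genes that fell and hold a match, chosen after their values were seen, are shown as examples from the NF-kappa B, cytokine and chemokine lists, with the match in capitals, each read 5′ to 3′ along the strand of the gene, where the motif or its reverse complement can stand. For Cxcl2 the match farthest from the gene start is shown.
Nfkbia, chr12:55492657-55492686, minus strand: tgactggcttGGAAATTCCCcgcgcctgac
Rel, chr11:23771041-23771070, minus strand: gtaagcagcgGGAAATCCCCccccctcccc
Il6, chr5:30013060-30013089, plus strand: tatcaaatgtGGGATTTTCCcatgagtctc
Cxcl10, chr5:92349029-92349058, minus strand: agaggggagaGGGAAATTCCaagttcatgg
Cxcl10, chr5:92348974-92349003, minus strand: tcggtttacaGGGGACTTCCctcgggttgc
Cxcl2, chr5:90903792-90903821, plus strand: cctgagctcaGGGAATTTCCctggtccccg
The first base of the motif lies at position -29 for Nfkbia, -91 for Rel, -44 for Il6, -159 and -104 for Cxcl10 and -97 for Cxcl2, counted from the gene start.

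Inflammatory cytokines fell with these genes. Of 25 listed genes 21 were tested, 12 fell and none rose, with 1 at an unadjusted p under 0.05 in the higher direction. The median log2 fold change was -1.18. Il6, whose promoter site is printed above, was 94.5, 92.7 and 69.3 FPKM in 4-weeks FA, 113, 181 and 68.6 FPKM in 4-weeks PM2.5, 13.6, 6.3 and 38.7 FPKM in 32-weeks CD45.2 FA and 5.8, 11.4 and 7.8 FPKM in 32-weeks CD45.2 PM2.5. Only the last FA library of 32-weeks came within a factor of 2 of the lowest 4-weeks library, and the groups did not overlap. Il6 was 7.4-fold lower (log2 fold change -3.02 ± 0.42, adjusted p = 0.00171). Its log2 fold change was -3.99 with PM2.5 replicates 0 and 1 alone.

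Tnf was 147 to 387 FPKM at 4-weeks and 40 to 66 FPKM at 32-weeks (log2 fold change -2.18 ± 0.26, adjusted p = 0.00108). The cytokine Lif, the growth factor Areg, the inhibitory cytokine Il10, the interleukin-23 subunit Il23a and Il1b fell, with log2 fold changes of -2.48, -1.79, -2.2, -1.67 and -1.64. Il1b was high at both time points, with 1276 to 4251 FPKM and 439 to 2347 FPKM, its groups overlapped, and its call was lost without any 1 of 9 libraries (adjusted p up to 0.0812). Ccrl2, an atypical chemokine receptor, was 376 to 574 FPKM at 4-weeks and 58.7 to 142 FPKM at 32-weeks (log2 fold change -2.15 ± 0.20, adjusted p = 0.000445). Of 19 cytokines tested with PM2.5 replicates 0 and 1 alone 9 had an unadjusted p under 0.05, all lower, and none passed the adjusted threshold. Those past it numbered 8 without the replicates 2 of 4-weeks.

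Acod1 (chr14:103046977-103056573), which makes the antimicrobial metabolite itaconate in activated myeloid cells, fell. It was 56.8, 62.5 and 115 FPKM in 4-weeks FA, 16.8, 21.4 and 212 FPKM in 4-weeks PM2.5, 0.182, 0.315 and 0.928 FPKM in 32-weeks CD45.2 FA and 0.426, 1.8 and 1.39 FPKM in 32-weeks CD45.2 PM2.5. The lowest 4-weeks libraries were PM2.5 replicates 0 and 1, and they were still above every 32-weeks library. The mean was 96.1-fold lower (log2 fold change -5.04 ± 0.56, adjusted p = 0.000807). With those 2 libraries alone the log2 fold change was -3.23 (adjusted p = 0.034 over 12844 genes and 0.0543 over 12821). The stress gene Gadd45a, 100 to 147 FPKM at 4-weeks and 23 to 42.2 FPKM at 32-weeks, fell (log2 fold change -2.0, adjusted p = 0.000126), and its log2 fold change was -2.09 with those 2 libraries alone (adjusted p = 0.0336 over 12821 genes).

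Immediate early genes fell in part. Of 28 AP-1 and immediate early genes, all tested, 7 fell and none rose, beside 6.68% of all genes in each direction. In the higher direction 0 had an unadjusted p under 0.05. Ppp1r15a, which restarts translation after stress, was 187 to 278 FPKM at 4-weeks and 67.5 to 92.0 FPKM at 32-weeks (log2 fold change -1.54 ± 0.14, adjusted p = 0.000445). The AP-1 subunit Fosl1 and the phosphatase Dusp2 fell, with log2 fold changes of -2.35 and -1.47. Fos, Jun, Junb and Egr1, classic immediate early genes, had log2 fold changes of 0.10, -0.09, -0.07 and -0.02 and did not pass. Of 42 tested interferon-induced genes 9 fell and none rose, beside the same shares of all genes, with 2 at an unadjusted p under 0.05 in the higher direction. Isg15 fell (log2 fold change -1.5, adjusted p = 0.00965). The interferon-induced count was 4 after rescaling to the same FPKM sum, 1 without the 2 libraries of highest interstitial marker sum and 2 without the replicates 2 of 4-weeks. Against PM2.5 replicates 0 and 1 alone, 8 AP-1 and immediate early genes were lower and 1 higher at an unadjusted p under 0.05, and 9 interferon-induced genes were lower and 0 higher.

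Non-classical monocyte markers were lower at 32-weeks. All 17 were tested and negative, 12 fell and the median log2 fold change was -1.63. The lower level was not particular to CD45.2 cells. The summed FPKM of the list had a median of 6538 at 4-weeks (4502 to 8413). At 32-weeks the median was 2946 in CD45.2 (2578 to 4708) and 3622 in CD45.1 monocytes (2563 to 5691), the latter overlapping 4-weeks. Treml4 (chr17:48264295-48275360), a receptor of non-classical monocytes, was 174, 202 and 333 FPKM in 4-weeks FA, 105, 131 and 341 FPKM in 4-weeks PM2.5, 9.61, 51.0 and 21.2 FPKM in 32-weeks CD45.2 FA and 57.3, 33.3 and 60.1 FPKM in 32-weeks CD45.2 PM2.5. Replicates 0 and 1 of 4-weeks PM2.5 were the lowest of their time point and 32-weeks CD45.2 FA replicates 0 and 2 the lowest of all. The log2 fold change was -2.53 ± 0.46 (adjusted p = 0.00584). Nr4a1, on which these cells depend, was 1506 to 2397 FPKM at 4-weeks and 492 to 956 FPKM at 32-weeks and fell by 1.27 on the log2 scale (adjusted p = 0.00257).

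Others that fell were Spn, which encodes CD43 (log2 fold change -2.03), Itgal, the alpha chain of LFA-1 (-1.61), the peptidase Ace (-1.74) and the bactericidal Pglyrp1 (-3.03). Spn lost its call without 4-weeks FA replicate 1 or 2 (adjusted p = 0.0516 and 0.0507), and Ace without any 1 of 5 libraries (adjusted p up to 0.0592). Among other genes with large falls, the activating receptor Cd300e, the sphingosine phosphate receptor S1pr5 and the connexin Gjb2 had log2 fold changes of -3.53, -2.68 and -2.92, and the lipase inhibitor G0s2, the enolase Eno3 and Tmem26 of -2.60, -2.58 and -2.52. The fractalkine receptor Cx3cr1 did not pass (log2 fold change -0.95, adjusted p = 0.236).

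The values differed with the libraries compared. With PM2.5 replicates 0 and 1 alone for 4-weeks, the log2 fold change was -1.25 for Treml4, -0.47 for Spn, -0.69 for Itgal, -0.48 for Ace and -0.90 for Nr4a1. The list then had a median of -0.69, and none of its 17 genes passed the adjusted threshold. At an unadjusted p under 0.05 there were 2, both lower, beside 1344 of 12844 genes in all. The count was 6 without the 2 libraries of highest interstitial marker sum and 4 without the replicates 2 of 4-weeks. Within exposures the list had a median of -2.44 for FA and -1.07 for PM2.5.

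Adhesion genes used in crawling and arrest fell too. Of 20 tested integrins and their ligands 8 fell and 2 rose, beside 6.68% of all genes in each direction. Pecam1 was 12.7 to 47.0 FPKM at 4-weeks and 5.12 to 10.5 FPKM at 32-weeks (log2 fold change -1.58 ± 0.26, adjusted p = 0.00392), the beta 2 integrin Itgb2 fell by 1.07 and Itga6 rose by 1.76 on the log2 scale. Fewer passed without the 2 libraries of highest interstitial marker sum, with 3 lower and 1 higher, and without the replicates 2 of 4-weeks, with 2 and 1. Cytotoxic genes of natural killer cells were lower. Of 9 tested of 16, 5 fell, and none rose, with 0 at an unadjusted p under 0.05 in the higher direction. Gzma was 3.23, 5.21 and 55.6 FPKM in 4-weeks FA, 0.958, 2.1 and 65.6 FPKM in 4-weeks PM2.5 and listed at 0 in 5 of 6 libraries of 32-weeks, with 0.849 FPKM in the other. The high Gzma values stand in the replicates 2 of 4-weeks, without which 2 of 6 tested natural killer cell genes fell, and the call of Gzma was lost without any 1 of 9 libraries (adjusted p up to 0.0761). Without the 2 libraries of highest interstitial marker sum 0 of 9 passed, with 6 at an unadjusted p under 0.05, all lower. When PM2.5 replicates 0 and 1 alone stood for 4-weeks, 2 of 20 integrin genes were lower and 1 higher at an unadjusted p under 0.05. Of 3 tested natural killer cell genes 1 was higher and 0 lower. Both counts stand beside 1344 of 12844 genes in all.

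Classical monocyte markers did not pass the threshold in either direction. None of 13, all tested, was called, 2 had an unadjusted p under 0.05 in the higher direction and 2 in the lower, and the median log2 fold change was -0.40. Ccr2 ran from 200 to 308 FPKM in 4-weeks FA, was 535, 660 and 171 FPKM in 4-weeks PM2.5, and 159 to 938 FPKM at 32-weeks. Vcan, a matrix proteoglycan of these cells, was 144 and 174 FPKM in PM2.5 replicates 0 and 1 and 22.8 to 42.7 FPKM in the other 4 libraries of 4-weeks. Ly6c2 was likewise highest in PM2.5 replicates 0 and 1 among the 4-weeks libraries, at 419 and 516 FPKM. Against those 2 libraries alone, 6 of the 13 markers were lower at 32-weeks at an unadjusted p under 0.05, none passed the adjusted threshold and the median was -1.05.

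The other gate genes tested were not called. Itgam, which encodes CD11b, was 89.4 to 121 FPKM at 4-weeks and 63.6 to 142 FPKM at 32-weeks (log2 fold change -0.26, adjusted p = 0.446), and Fcgr1, which encodes CD64, had a log2 fold change of 0.53 (adjusted p = 0.398). Ly6g was listed at 0 in all libraries but 4-weeks PM2.5 replicate 2, at 2.47 FPKM. Housekeeping lists lay near the middle of all genes. Of 73 tested ribosomal protein genes 1 passed, higher, of 73 nuclear respiratory chain genes 1, higher, and of 31 proteasome and 19 glycolysis genes none, with 3 and 4 at an unadjusted p under 0.05, all lower.

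**Figure D5:**
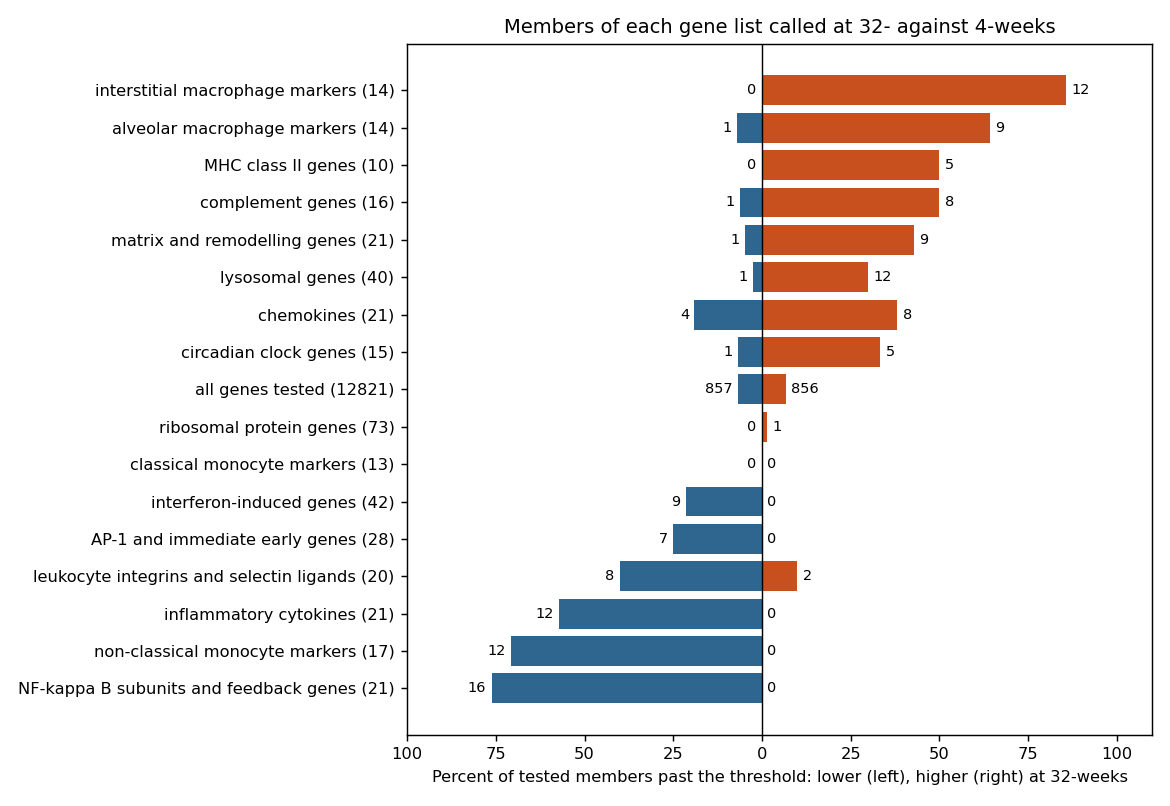
Share of the tested members of each list, in percent, that were lower (bars to the left) or higher (bars to the right) at 32-weeks, with the number of members tested in brackets and the number past the threshold at the bar. Interstitial macrophage markers have 12 of 14 members to the right and NF-kappa B genes 16 of 21 to the left, beside 856 and 857 of 12821 genes in all.

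Resident alveolar macrophages (TR-AΦ) sorted from lungs of the same exposure groups were used to ask which differences were also theirs. The 4-weeks macrophage labels give no CD45 type either. Their Ctse was 1.82 and 2.85 FPKM in replicates 2 of FA and PM2.5, and at most 0.0966 FPKM in the others. At 32-weeks it was 2.91 to 5 FPKM in CD45.1 and 0 to 0.545 FPKM in CD45.2 macrophages. Ppfia4, at 0.975 to 2.36 FPKM in all 4-weeks macrophage libraries, was above the CD45.1 macrophages (at most 0.0925 FPKM). In a joint fit of 24 libraries the time difference of monocytes departed from that of TR-AΦ for 887 of 13238 genes (6.7%), 521 with a larger value in monocytes and 366 with a smaller one. For TR-AΦ in the same fit, 154 of the 13238 genes were higher at 32-weeks and 368 were lower. Of 818 genes higher in 32-weeks monocytes and in that fit, 35 were also higher in TR-AΦ and 12 were lower there. Of 847 lower genes, 132 were also lower in TR-AΦ and 4 were higher there. With PM2.5 replicates 0 and 1 alone for 4-weeks monocytes, 80 genes departed in the joint fit. The monocyte time difference then rests on PM2.5 libraries only.

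Interstitial macrophage genes were among those that departed. Cd163 had a log2 fold change of -0.68 in TR-AΦ (adjusted p of the departure 0.000208), Folr2 of -0.87 (0.000474) and Lyve1 of -0.40 (0.00187). Apoe rose in monocytes and fell by 1.88 on the log2 scale in TR-AΦ (adjusted p = 0.0125; departure 0.00355). H2-Aa was 0.34 in TR-AΦ (departure 0.0448). Treml4 and Nr4a1 had log2 fold changes of -0.53 and -0.75 in TR-AΦ and were not called there (adjusted p = 0.502 and 0.135), with a departure of adjusted p = 0.0308 for Treml4 and 0.505 for Nr4a1.

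NF-kappa B genes fell in both kinds of cell, with 16 of 21 in monocytes and 13 of 21 in TR-AΦ, beside 857 of 12821 and 368 of 13238 genes in all. Nfkbia fell by 1.83 on the log2 scale in TR-AΦ (adjusted p = 7.82e-07; departure 0.412), Tnf had a log2 fold change of -3.07 there (adjusted p = 2.89e-08; departure 0.0993) and Il6 of -3.0 (adjusted p = 0.000271; departure 0.989). Nfkbiz and Cxcl10 fell further in TR-AΦ than in monocytes, with log2 fold changes of -3.27 against -1.46 for Nfkbiz (departure 0.00946) and of -5.6 against -2.23 for Cxcl10 (departure 0.000178). Acod1 had a log2 fold change of -2.17 in TR-AΦ and -5.04 in monocytes (departure 0.0238). Trem1 fell in monocytes and had a log2 fold change of -0.07 in TR-AΦ (departure 0.00207). The clock gene Nr1d1 rose in both, by 1.52 in TR-AΦ (adjusted p = 0.0438; departure 0.322).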

How the data were processed

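RNA-seq of lung monocytes from 3 mice per group was analysed, with the libraries grouped by the labels. The authors deposited FPKM per gene, made from reads trimmed with TrimGalore and aligned with STAR to mm10 with Cufflinks and GENCODE, per the study's methods. FPKM are scaled for depth and length, so a dominant transcript lowers the rest. Log2(FPKM + 1) was tested with limma 3.58.1 (trended variance) in R 4.3.3, with exposure as a covariate and Benjamini-Hochberg adjustment over 12821 genes. Figures used matplotlib 3.10.9 in Python 3.11.15. Deposited locus starts count from 0 and were converted. No read counts were used, and FPKM do not give the depth of each library. The code was tested on simulated data. Named genes were the 15 largest changes per direction (mean at least 5 FPKM, no overlap, no predicted genes), up to 4 members per list by p, gate and subset markers, and interaction genes; other list members were named after their values were seen. Members and lists were chosen with earlier results of these data known. Alternatives were scaling, pseudocount, filters, covariates, leaving out libraries, and 3 sets of left-out libraries chosen after seeing the data. Some list members are not reported here by name.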

Additional observations from a re-analysis of the deposited data

Results flagged for a closer look

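The time difference departed between FA and PM2.5 for 2 short transcripts. Gm25127 (chr3:149028932-149029038) was 859, 470 and 434 FPKM in 4-weeks FA and listed at 0 in the other 9 libraries, a difference of 9.13 on the log2 scale (limma, adjusted p = 5.79e-07). AC157602.1 (chr15:71794186-71794365) was 374, 425 and 151 FPKM in 4-weeks PM2.5 and listed at 0 in the other 9 libraries, a difference of -8.176 (adjusted p = 2.58e-05), and it was 456 FPKM in 1 library of 32-weeks CD45.1 monocytes. A value listed at 0 for so short a transcript can be a failed estimate, which was not tested.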

How the results depend on the processing

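Of the 182 named genes that passed the threshold, none changed direction in 4685 recomputed values, and 636 of these values no longer passed, 169 of them without the 4 libraries near the CD45.1 level. With a mean of at least 5 FPKM only 8261 genes were tested, of which 502 were higher and 772 lower. With libraries rescaled to the same sum 417 were lower and 586 departed between cell types. Without the filter, 39 genes changed within PM2.5 and 4 in the interaction of time and exposure. Without the 4 libraries near the CD45.1 level 4 genes were higher, 12 lower (3 and 10 on the gene set of the full comparison) and 80 departed between cell types. Without 32-weeks CD45.2 FA replicate 0 and PM2.5 replicate 1 these counts were 367, 311 and 502, and without the replicates 2 of 4-weeks they were 446, 343 and 555. With 1 library left out at a time, the counts were 587 to 870 higher, 537 to 872 lower, 7 to 700 within FA, 10 to 132 within PM2.5, 3 to 8 for the interaction and 663 to 1050 for the departure between cell types. Lower genes were fewest without 4-weeks FA replicate 2 (537) and replicate 1 (547). The labels number replicates 0 to 2 in each group, but same-numbered libraries deviated together only weakly (r from -0.0525 to 0.211, over 0.1 in 3 of 18 pairs), so the numbers were not taken as pairs. Replicates 2 of 4-weeks FA and PM2.5 had the r of 0.211, and whether they share a batch was not tested. With a term for replicate 2, 1003 genes were higher and 1188 lower. Monocytes and TR-AΦ of the same number had r from -0.0159 to 0.0768 in 12 pairs. With the number as a replicate block, 997 genes were higher, 1229 lower, 865 changed within FA, 295 within PM2.5 and 1350 departed between cell types. Of 1351 recomputed list medians 53 moved beyond their spread. FPKM without counts set no limit of detection.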
